A study of Mus musculus with 11 samples.

Results

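The mesenchymal identity factors and cadherins are 10 genes, the Snail factors Snai1 and Snai2, the Twist factors Twist1 and Twist2, the Zeb factors Zeb1 and Zeb2, the paired-related homeobox factors Prrx1 and Prrx2, N-cadherin (Cdh2) and cadherin-11 (Cdh11). They are a family chosen by name and role, matched by gene symbol, and all 10 had a row among the 24062 gene rows of the count files. RNA-seq was performed in 11 libraries of primary mouse fetal lung mesenchymal cells, 4 of them Sp3+/+ (WT), 4 Sp3+/- and 3 Sp3-/-. The embryos came from matings of heterozygous mice that carry an inactivated allele of Sp3, a zinc finger factor that binds GC-rich promoters. Lungs were taken at embryonic day 15, mesenchymal cells were enriched by their rapid adhesion to culture plastic, and the cells of every genotype were passaged, with no treatment named in the labels. The cells were thus a mixed primary culture rather than a sorted population, and the loss of Sp3 was not limited to the lung mesenchyme of the embryo. The labels did not say whether libraries came from separate embryos, so that the p-values below measure only the spread between these libraries.

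Libraries held between 9849111 and 59297495 reads on genes, with a median of 34968482, and are named here by genotype and label number. The labels start with 468, 685 or 697, and their meaning was not given. The titles of 5 libraries end without a number (WT 468-4, Sp3+/- 697-4 and all 3 Sp3-/- libraries), 1 ends in 2 and 5 end in 3. This title suffix and the genotype can hardly be told apart, because all Sp3-/- libraries lack the suffix and only 1 WT and 1 Sp3+/- library do. For Sp3+/- 697-4 the name of the deposited counts carries a 2 that its title lacks. The title was used throughout, so that the suffix of this library is uncertain. Sp3 itself was between 5.94 and 6.75 log2 CPM in WT, between 5.71 and 6.15 in Sp3+/- and between 3.89 and 4.23 in Sp3-/- libraries. The means (6.38, 5.91 and 4.10) were in the order the labels name, but WT and Sp3+/- libraries overlapped. CPM are counts scaled to library size with TMM factors, and log2 CPM were computed with a prior count of 2. The 12 lung mesenchyme markers were led by Col1a1 and Col1a2, while Meox2 was near 0. They summed to between 13604 and 22546 CPM in WT, 15452 and 22825 in Sp3+/- and 7944 and 20506 in Sp3-/- libraries. These markers went in both directions in Sp3-/- against WT cells. Of 11 tested, 4 were called lower and 1 higher (Dcn, 1.32 on the log2 scale), at an adjusted p below 0.05 by edgeR. Of all genes tested, 9.77% were called lower and 8.76% higher. The 12 macrophage markers, led by Lyz2 and Cd68, summed to between 645.5 and 3438 CPM in WT, 389.1 and 3234 in Sp3+/- and 3249 and 11761 in Sp3-/- libraries. The highest sums in WT and Sp3+/- were those of the libraries without a suffix, 468-4 and 697-4.

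Epithelial-mesenchymal transition (EMT) is the process by which epithelial cells lose their junctions and become motile mesenchymal cells. Snail, Zeb and Twist factors are its best known transcription factors, and the Snail and Zeb factors bind E-boxes in the promoter of E-cadherin (Cdh1) and repress it. Twist factors are basic helix-loop-helix proteins that act with E protein partners, and Prrx factors are homeodomain proteins of embryonic mesenchyme. N-cadherin and cadherin-11 are calcium-dependent adhesion molecules of mesenchymal cells that are linked to actin through catenins. In a fetal lung, these genes mark the mesenchyme as opposed to the airway epithelium.

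On GRCm38.p6 the RefSeq genes are at chr2:167538195-167542814 (Snai1), chr16:14705852-14709395 (Snai2), chr12:33957671-33959831 (Twist1), chr1:91801461-91848034 (Twist2), chr2:44983512-45117442 (Zeb2), chr1:163245119-163315145 (Prrx1), chr2:30845064-30881251 (Prrx2) and chr8:102632095-102785493 (Cdh11).  Counts were of whole genes, so that no exon or isoform was told apart.

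Sp3 binds the GC box, whose core is GGGCGG, or CCGCCC on the other strand. The promoters of the Twist and Prrx genes are shown because one gene of each pair was called lower in Sp3-/- cells and the other was not. They are the 300 bases around an annotated transcript start in RefSeq (GRCm38.p6), written 5′ to 3′ on the strand of the gene, with every match to the GC box core on either strand in capitals. Twist1, Twist2 and Prrx2 are on the plus strand and Prrx1 on the minus strand.
Twist1 chr12:33957421-33957720: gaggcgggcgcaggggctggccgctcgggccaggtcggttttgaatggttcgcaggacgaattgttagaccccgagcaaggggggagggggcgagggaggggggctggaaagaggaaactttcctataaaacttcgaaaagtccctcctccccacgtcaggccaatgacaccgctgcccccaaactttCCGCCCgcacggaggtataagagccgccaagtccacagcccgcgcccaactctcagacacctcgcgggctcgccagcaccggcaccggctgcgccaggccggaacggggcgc
Twist2 chr1:91801211-91801510: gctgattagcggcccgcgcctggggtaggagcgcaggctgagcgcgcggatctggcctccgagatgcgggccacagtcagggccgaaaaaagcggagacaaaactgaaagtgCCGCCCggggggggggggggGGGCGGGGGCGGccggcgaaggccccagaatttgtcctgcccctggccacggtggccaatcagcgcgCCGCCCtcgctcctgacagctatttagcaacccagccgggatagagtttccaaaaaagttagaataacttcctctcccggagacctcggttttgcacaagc
Prrx1 chr1:163313601-163313900: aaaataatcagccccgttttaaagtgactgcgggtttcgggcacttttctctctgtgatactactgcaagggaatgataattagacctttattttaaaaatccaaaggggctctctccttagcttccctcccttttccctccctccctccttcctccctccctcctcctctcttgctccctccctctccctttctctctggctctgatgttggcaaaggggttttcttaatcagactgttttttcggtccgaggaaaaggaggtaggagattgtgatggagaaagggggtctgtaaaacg
Prrx2 chr2:30845117-30845416: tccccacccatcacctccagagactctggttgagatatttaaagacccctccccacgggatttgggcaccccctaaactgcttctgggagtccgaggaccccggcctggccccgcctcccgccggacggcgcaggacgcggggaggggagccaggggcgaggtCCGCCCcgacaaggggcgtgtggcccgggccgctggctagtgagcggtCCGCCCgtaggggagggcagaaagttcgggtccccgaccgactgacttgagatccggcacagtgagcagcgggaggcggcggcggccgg
The Twist2 promoter held 4 matches to the core, and 1 of them lay within the longer GGGGCGGGG. The Twist1 promoter held 1 match, the Prrx1 window 0 and the Prrx2 window 2. Both Prrx windows lie inside the RefSeq genes, downstream of the outermost gene starts at 163315145 (Prrx1) and 30845064 (Prrx2). The sequences around those outer starts were not read. Among all 32851 promoters of this table, 35.66% held the core and 11.45% held GGGGCGGGG on either strand. The Snai1 promoter in the table held no core and 1 match to the E-box CAGGTG, which 20.21% of all promoters held. Of the 4 listed Zeb2 starts, 3 held the core once, and 2 of these windows overlap and share the same match. The matches are letters in these windows only, and binding was not measured.

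To ask how the genes compare in abundance, CPM were divided by the length of all annotated exons of a gene. Among WT libraries, the order of the means was Cdh2 (33.1 ± 6.0 CPM per kb, SD, n = 4), Cdh11 (31.7 ± 3.83), Prrx1 (12.8 ± 7.11), Snai2 (11.9 ± 2.15), Snai1 (10.5 ± 2.07), Twist1 (8.21 ± 2.63), Zeb1 (7.67 ± 1.08), Prrx2 (6.42 ± 2.5), Zeb2 (5.87 ± 1.62) and Twist2 (2.02 ± 0.764). The cadherins were thus the most abundant and Twist2 the least abundant of the group. Neighbours in this order had overlapping libraries except for the steps from Cdh11 to Prrx1 and from Zeb2 to Twist2. The Sp3+/- means ran from 37.8 ± 5.15 CPM per kb for Cdh11 to 1.48 ± 0.803 for Twist2 (SD, n = 4). In Sp3-/- libraries, Cdh11 (37.7 ± 16.1, SD, n = 3) and Cdh2 (23.8 ± 3.90) again came first and Twist2 (0.383 ± 0.133) last. Zeb2, the ninth by its WT mean, was the third by its Sp3-/- mean (11.5 ± 3.72 CPM per kb), and Prrx1 was the third in WT and the ninth in Sp3-/- libraries (1.70 ± 0.807). The exon lengths came from a later annotation than the one used for counting, and genes with many alternative exons appear lower on this scale.

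Sp3-/- and WT cells were compared first, since this is the contrast of the complete loss of Sp3. A gene was called at an adjusted p below 0.05 in the quasi-likelihood test of edgeR. By this rule 5 of the 10 genes were lower in Sp3-/- cells, Snai1, Snai2, Twist2, Zeb1 and Prrx1, and 0 were higher. Across all 14025 genes tested, 18.5% were called, 9.77% lower and 8.76% higher. The median log2 fold change of the 10 genes was -0.80, against -0.0032 for all genes tested. In the same 5 genes every Sp3-/- library lay below every WT library, a separation in either direction that 31.6% of all genes tested had. The other 5 genes had overlapping libraries. In a bulk culture, fewer cells of a type and less RNA per cell cannot be told apart.

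**Figure D1:**
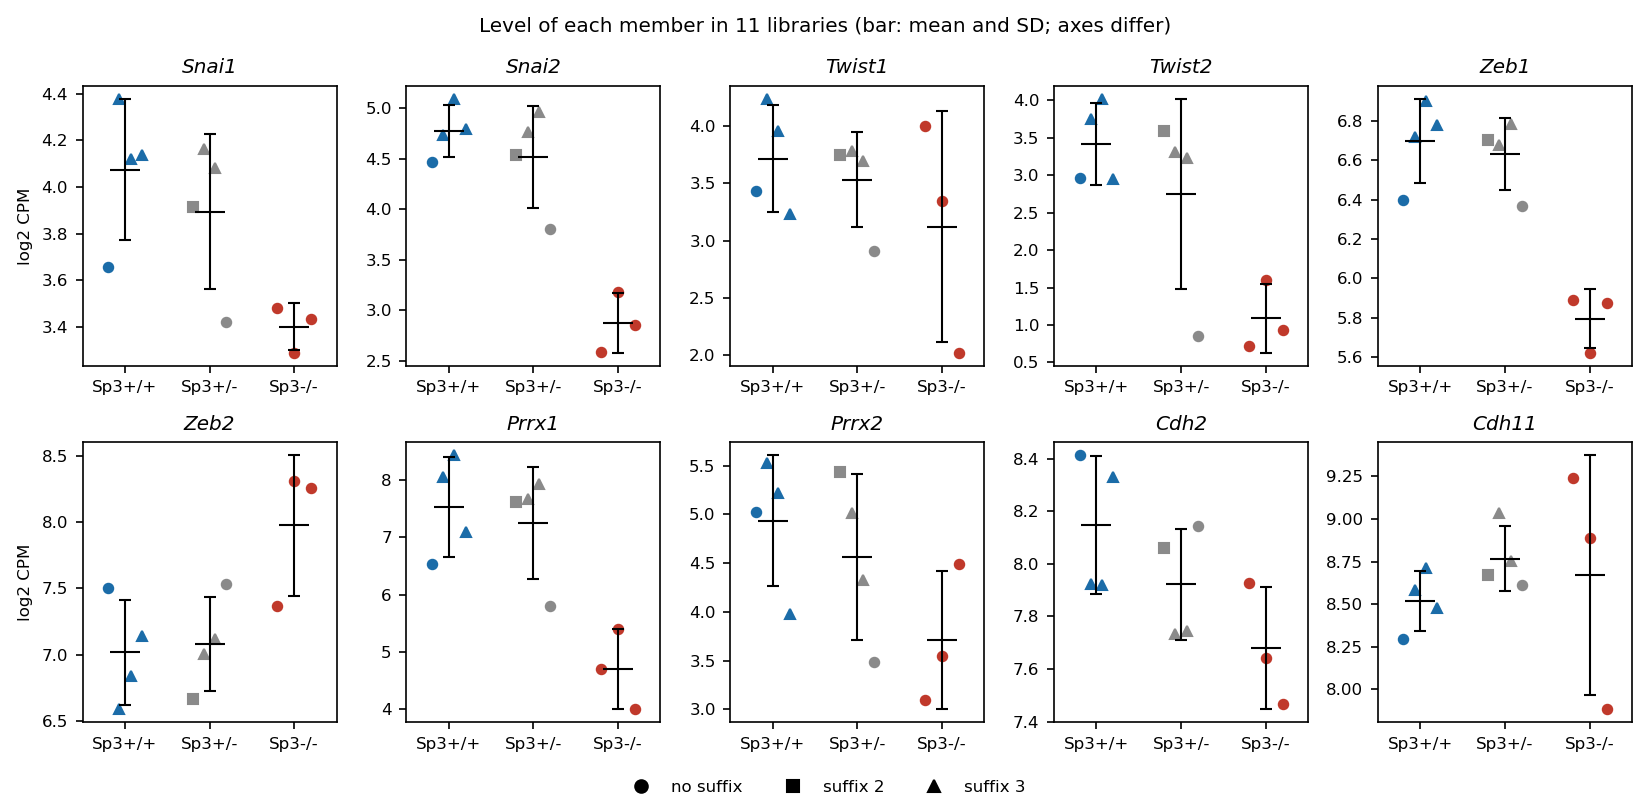
Levels of the 10 genes as log2 CPM (vertical axes, which differ between panels) in the 4 WT, 4 Sp3+/- and 3 Sp3-/- libraries. Each point is a library, its shape gives the suffix of the library title, and the black bars are the mean and SD. Snai1, Snai2, Twist2, Zeb1 and Prrx1 of Sp3-/- libraries lie below all WT libraries, and the Sp3+/- library without a suffix (697-4, circle) is the lowest of its genotype for all but Zeb2 and Cdh2.

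Snai2 (Slug), a zinc finger repressor, was called lower in the mutant cells. In the order WT 468-4, 685-2, 697-1 and 697-3, Sp3+/- 468-3, 685-5, 685-7 and 697-4, and Sp3-/- 685-1, 697-2 and 697-5, used throughout, Snai2 was 4.47, 4.74, 5.10 and 4.80 log2 CPM in WT, 4.54, 4.77, 4.97 and 3.81 in Sp3+/- and 2.59, 3.18 and 2.86 in Sp3-/- libraries. The Sp3-/- values lay below all of the others, and 697-4 was the lowest library that carried Sp3. Compared with WT, Snai2 fell by 1.89 ± 0.21 on the log2 scale (SE), 3.72-fold, with an adjusted p of 0.0073 by edgeR. The call held when any 1 of the 7 libraries was left out, at adjusted p between 0.0032 and 0.038 by edgeR, and with the title suffix as a covariate (-1.37).

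Snai1 (Snail), its closest relative and a repressor of the same targets, was also called. Its levels were 3.66, 4.38, 4.12 and 4.14 log2 CPM in WT, 3.91, 4.16, 4.08 and 3.42 in Sp3+/- and 3.48, 3.29 and 3.44 in Sp3-/- libraries. The gap between WT 468-4 and the nearest Sp3-/- library was small, and Sp3+/- 697-4 lay among the Sp3-/- values. Snai1 fell by 0.69 ± 0.18 (log2, SE), 1.61-fold, at an adjusted p of 0.038 by edgeR. Leaving out any 1 library other than WT 468-4 ended this call, with adjusted p between 0.065 and 0.136 (edgeR). The value was -0.21 with the title suffix as a covariate and -0.26 when the means of the libraries without a suffix were compared (3 Sp3-/- against 1 WT).

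Of the Twist pair, Twist2 was called lower and Twist1 was not, and the difference between their changes was not tested. Twist2 (Dermo1), which marks dermal and other embryonic mesenchyme, was 2.97, 3.75, 4.02 and 2.94 log2 CPM in WT, 3.59, 3.31, 3.24 and 0.85 in Sp3+/- and 0.72, 1.61 and 0.93 in Sp3-/- libraries. All Sp3-/- libraries were below all WT libraries, but 697-4 was as low as the Sp3-/- libraries. These levels rested on 194 to 399 reads per WT library and 18 to 135 per Sp3-/- library. Twist2 fell by 2.36 ± 0.39 (log2, SE), 5.14-fold, at an adjusted p of 0.014 by edgeR. The call held in each of the 7 fits without 1 library (adjusted p between 0.0064 and 0.045, edgeR). With the title suffix as a covariate the value was -1.35 at an adjusted p of 0.11 by edgeR.

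Twist1, which is needed for neural crest and limb mesenchyme, did not pass the test. It ranged from 3.23 to 4.24 log2 CPM in WT, from 2.91 to 3.78 in Sp3+/- and from 2.02 to 4.00 in Sp3-/- libraries. The mutant libraries were spread over the whole range, with 685-1 among the highest of all and 697-5 the lowest of all. The log2 fold change was -0.41 ± 0.44 (SE), with an adjusted p of 0.53 by edgeR.

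Zeb1, a zinc finger and homeodomain repressor of epithelial genes, was lower in Sp3-/- cells with little spread. Its levels were 6.40, 6.72, 6.90 and 6.78 log2 CPM in WT, 6.70, 6.68, 6.78 and 6.37 in Sp3+/- and 5.89, 5.62 and 5.87 in Sp3-/- libraries. The mutant libraries lay below all 8 libraries that carried Sp3, 697-4 included. Zeb1 fell by 0.91 ± 0.14 (log2, SE), 1.87-fold, at an adjusted p of 0.011 by edgeR, and it was called with the title suffix as a covariate. Without Sp3-/- 697-2 the change was -0.83 and its adjusted p was 0.054 (edgeR).

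Zeb2 (Sip1), its paralog, lay in the opposite direction and did not reach the threshold in the 7-library fit. Zeb2 was 7.50, 6.59, 6.84 and 7.14 log2 CPM in WT, 6.67, 7.00, 7.12 and 7.53 in Sp3+/- and 7.36, 8.31 and 8.25 in Sp3-/- libraries. The highest values were those of Sp3-/- 697-2 and 697-5, and within WT and Sp3+/- those of the libraries without a suffix. The log2 fold change was 0.98 ± 0.29 (SE) at an adjusted p of 0.053 by edgeR. Without WT 468-4 or Sp3-/- 685-1 it was called, at 1.17 and 1.22, with adjusted p of 0.023 and 0.027 (edgeR). These were 2 of the 7 fits without 1 library, and without Sp3-/- 697-2 the adjusted p was 0.17 (edgeR). Zeb2 was also called by edgeR with the label number as a block (0.95, adjusted p of 0.032). The same held in the fit of all 11 libraries (0.028) and with library size alone (0.048). Limma with the consensus correlation (0.040) and DESeq2 (0.0069) called it as well. It was not called by limma without that correlation (adjusted p of 0.055). By edgeR it was not called with upper quartile factors (0.059), with no filter (0.065) or with filterByExpr (0.053). With the title suffix as a covariate it was at 0.58, with an adjusted p of 0.22 by edgeR. Zeb2 is also expressed in macrophages. The 12 macrophage markers all had at least 10 reads in every library and summed to 3438, 738.7, 645.5 and 936.3 CPM in WT, 389.1, 610.0, 691.9 and 3234 in Sp3+/- and 3249, 11761 and 11033 in Sp3-/- libraries. Of these markers 5 of 12 were called higher in Sp3-/- than in WT cells, against 8.76% of all genes tested. The 12 had a median change of 2.35 (log2). Their part in the Zeb2 values was not tested.

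Prrx1, a homeobox factor of limb, craniofacial and lung mesenchyme, had the largest decrease of the group in the comparison of all WT and Sp3-/- libraries, whereas Twist2 had it among those without a suffix. It was 6.54, 8.06, 8.44 and 7.09 log2 CPM in WT, 7.63, 7.67, 7.93 and 5.81 in Sp3+/- and 4.70, 5.41 and 3.99 in Sp3-/- libraries. No Sp3-/- library overlapped with a library that carried Sp3, although 697-4 was the nearest to them. Compared with WT, Prrx1 fell by 2.89 ± 0.56 (log2, SE), 7.41-fold, at an adjusted p of 0.019 by edgeR. The call was lost without Sp3-/- 697-2 (-2.53, adjusted p of 0.056 by edgeR). With the title suffix as a covariate the change was -1.52 at an adjusted p of 0.071 (edgeR), and between libraries without a suffix it was -1.84.

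Prrx2, the paralog of Prrx1 with an overlapping pattern in the embryo, was not called. Its libraries ranged from 3.98 to 5.53 log2 CPM in WT, from 3.49 to 5.43 in Sp3+/- and from 3.10 to 4.49 in Sp3-/-. WT 697-3 was lower than Sp3-/- 697-5. The log2 fold change was -1.23 ± 0.44 (SE) with an adjusted p of 0.088 by edgeR.

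The mesenchymal cadherins were abundant in every genotype. Cdh2 was between 7.92 and 8.41 log2 CPM in WT, 7.73 and 8.14 in Sp3+/- and 7.47 and 7.93 in Sp3-/- libraries, with a log2 fold change of -0.47 ± 0.17 (SE) and an adjusted p of 0.090 by edgeR. Only with the title suffix as a covariate was Cdh2 called lower among the alternatives tried, at -0.74 and an adjusted p of 0.034 (edgeR). Cdh11 was between 8.29 and 8.71 log2 CPM in WT, 8.61 and 9.04 in Sp3+/- and 7.88 and 9.24 in Sp3-/- libraries. Both its highest and its lowest value came from Sp3-/- libraries, 685-1 and 697-5. The log2 fold change of Cdh11 was 0.26 ± 0.29 (SE) with an adjusted p of 0.55 by edgeR, and without Sp3-/- 685-1 it was -0.051.

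**Figure D2:**
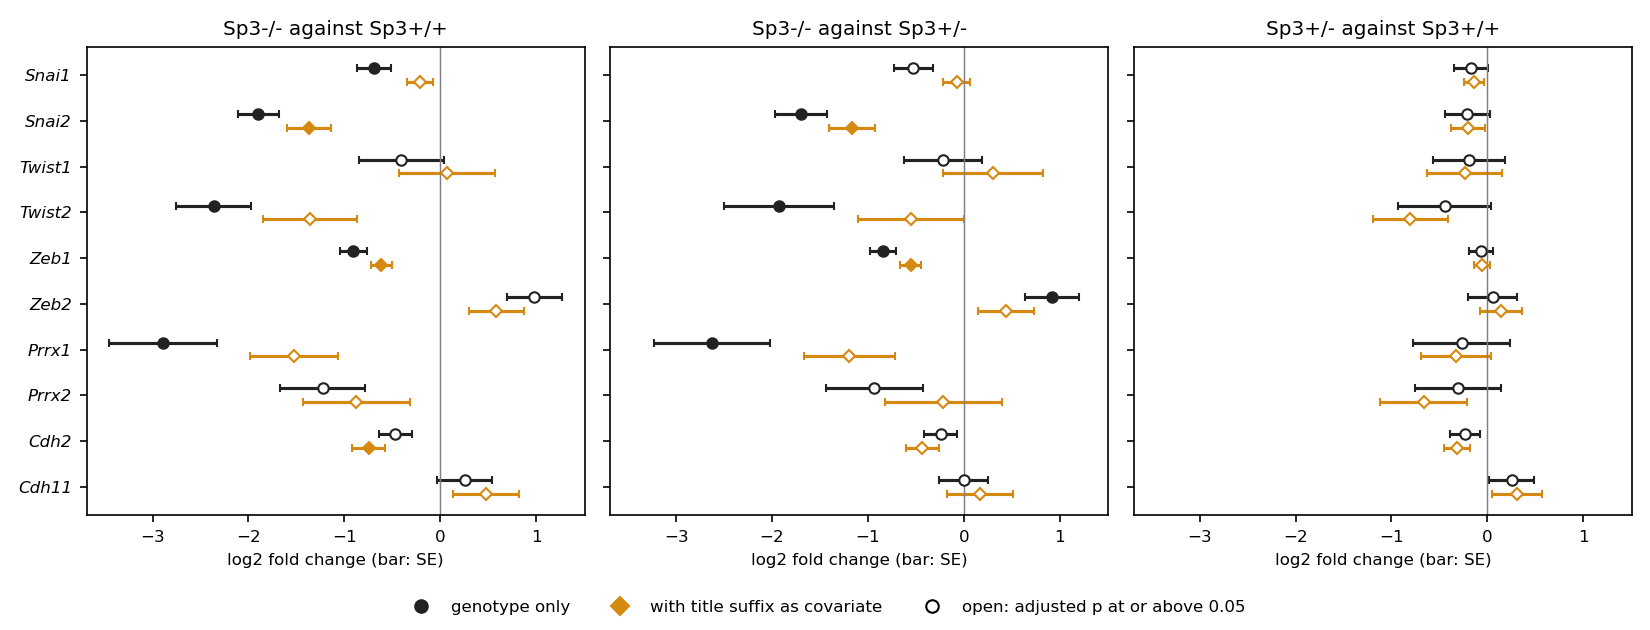
Log2 fold changes (horizontal axis) with their SE for the 10 genes in the 3 comparisons. Circles are the fit with genotype alone and diamonds the fit with the title suffix as a covariate, filled where the adjusted p was below 0.05. With the suffix, Prrx1 in Sp3-/- against WT cells moved from -2.89 to -1.52, whereas Snai2 and Zeb1 were called under both.

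The 5 pairs were next described within each library, as the share of the CPM per kb of a pair that came from one gene. This share does not depend on the scaling between libraries, and it was not tested. Snai2 made up 47.4 to 58.0% of the Snail pair in WT, 47.8 to 56.5% in Sp3+/- and 27.3 to 39.4% in Sp3-/- libraries. Twist2 made up 17.5 to 23.7% of the Twist pair in WT, 6.48 to 21.0% in Sp3+/- and 2.86 to 12.0% in Sp3-/- libraries. Zeb2 made up 35.5 to 56.3% of the Zeb pair in WT, 37.0 to 57.4% in Sp3+/- and 62.5 to 79.4% in Sp3-/- libraries. In these 3 pairs the Sp3-/- and WT libraries did not overlap. How often other gene pairs separate was not counted, and of single genes tested 31.6% did. The highest Zeb2 shares in WT and Sp3+/- were those of the libraries without a suffix, 468-4 and 697-4. The Twist2 share of 697-4 lay within the range of the Sp3-/- libraries. The share of Prrx2 in the Prrx pair was 25.7 to 52.9% in WT, 21.0 to 41.4% in Sp3+/- and 47.0 to 82.0% in Sp3-/- libraries, and the share of Cdh11 in the cadherin pair was 40.7 to 56.4%, 50.8 to 64.8% and 49.9 to 65.0%. For these pairs the Sp3-/- and WT libraries overlapped.

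**Figure D3:**
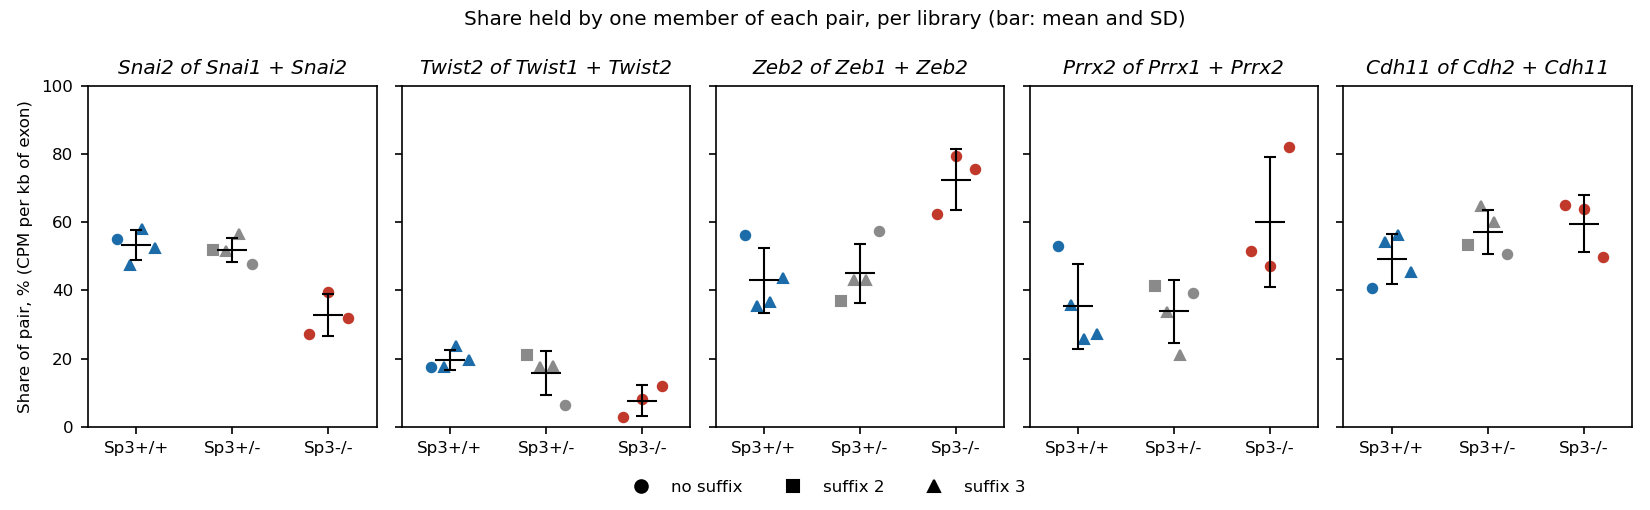
Share (%) of the CPM per kb of exon of each pair that came from the gene named first in the panel title, for each of the 11 libraries. Points are libraries, shaped by title suffix, and black bars are the mean and SD. For Snai2 and Twist2 the Sp3-/- libraries are below the WT libraries, and for Zeb2 they are above them.

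Comparing Sp3-/- with Sp3+/- cells gave 5 calls among the 10 genes, and the comparison shares the Sp3-/- libraries with the one above. Snai2 (-1.69 ± 0.27, log2 ± SE), Twist2 (-1.92 ± 0.57), Zeb1 (-0.84 ± 0.14) and Prrx1 (-2.63 ± 0.60) were called lower and Zeb2 (0.92 ± 0.28) higher. Their adjusted p by edgeR were 0.0037, 0.034, 0.0040, 0.013 and 0.036. Of all 14130 genes tested, 25.5% were called, 12.5% lower and 13.0% higher. Libraries of the genotypes did not overlap for Snai2, Zeb1 and Prrx1, which are 3 of the 10 genes, against 34.2% of all genes tested. With the label number as a block, Twist2 (-1.70) and Zeb2 (0.75) were no longer called, and with the title suffix as a covariate neither were Twist2 (-0.55), Zeb2 (0.44) or Prrx1 (-1.19). Twist2 overlapped because of 697-4. Zeb2 overlapped because 697-4 (7.53 log2 CPM) lay above Sp3-/- 685-1 (7.36). The Twist2 call was lost without Sp3+/- 468-3, 685-5 or 685-7 or without any of the Sp3-/- libraries (adjusted p between 0.067 and 0.092, edgeR). The Zeb2 call was lost without Sp3+/- 468-3, 685-5 or 685-7 or without Sp3-/- 697-2 or 697-5 (adjusted p between 0.081 and 0.129, edgeR).

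Snai1 was not called against Sp3+/- cells, with a log2 fold change of -0.52 ± 0.20 (SE) and an adjusted p of 0.077 by edgeR. It was called without WT 468-4 (-0.53, adjusted p of 0.043) and without Sp3+/- 697-4 (-0.66, adjusted p of 0.022, edgeR). Prrx2 (-0.93 ± 0.50), Cdh2 (-0.24 ± 0.17), Twist1 (-0.22 ± 0.40) and Cdh11 (-0.00035 ± 0.26) did not pass the test either. Between the 3 Sp3-/- libraries and 697-4, the Sp3+/- library that also lacks the suffix, differences in mean log2 CPM were -0.93 for Snai2, -0.57 for Zeb1, -1.10 for Prrx1, -0.019 for Snai1 and 0.23 for Twist2.

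In the cells with 1 copy of Sp3, no member differed detectably from WT. Of the 10 genes, 0 were called by edgeR, by DESeq2 or by limma, and 0 had an unadjusted p below 0.05 by edgeR, Cdh2 coming nearest. Likewise 0% of the 14130 genes tested were called, 1.74% had an unadjusted p below 0.05, and 1.41% had libraries that did not overlap, as did 0 of the 10 genes. Log2 fold changes ran from -0.44 ± 0.49 (SE) for Twist2 to 0.25 ± 0.24 for Cdh11, and Sp3 itself was at -0.49 ± 0.16. Within the Sp3+/- group, library 697-4 was the lowest for 8 of the 10 genes, all but Zeb2 and Cdh2. Without it, the log2 fold change of Prrx1 was 0.028 in place of -0.27.

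Sp3-/- and WT cells were also compared among libraries of the same label number or without a suffix. The called genes could only be lower here, because none of their Sp3-/- libraries overlapped with a WT library. For these genes the comparisons describe only the size of the differences. Between the 685 libraries (1 against 1), the differences in log2 CPM were -0.90 for Snai1, -2.15 for Snai2, -3.03 for Twist2, -0.82 for Zeb1 and -3.36 for Prrx1. Between the 697 libraries (2 against 2), they were -0.77, -1.93, -2.22, -1.09 and -3.07 in the same order. Among libraries without a suffix (3 against 1), they were -0.26, -1.59, -1.88, -0.60 and -1.84. Zeb2 stood at 0.77, 1.29 and 0.47 in these 3 comparisons. In an edgeR fit of the 4 libraries without a suffix, the log2 fold changes were -0.27, -1.59, -1.85, -0.61 and -1.73 in the same order. With 1 WT library, this fit could not decide whether a gene is called. The 685 and 697 libraries were not fitted on their own.

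Cdh1, the textbook target of Snail and Zeb factors, was near the detection limit in WT cells. WT libraries held 13, 4, 0 and 0 reads of Cdh1, Sp3+/- libraries 3, 15, 13 and 4, and Sp3-/- libraries 211, 112 and 51. Pooled over libraries this was 0.157, 0.253 and 4.11 CPM. Cdh1 was called higher in Sp3-/- than in WT cells (4.81 ± 0.95 on the log2 scale, SE, adjusted p of 0.020 by edgeR), and 4.17 ± 0.76 higher than in Sp3+/- cells (adjusted p of 0.0059, edgeR). The call against WT was lost without WT 685-2 or Sp3-/- 697-2 (5.05 and 5.11, adjusted p of 0.053 and 0.060, edgeR). The 12 epithelial markers, Cdh1 among them, summed to between 25.5 and 51.2 CPM in WT, 32.5 and 53.4 in Sp3+/- and 54.7 and 178.1 in Sp3-/- libraries, mostly from Krt18 and Krt19. Of these markers 8 were tested, and Cdh1, Krt18 and Epcam were called higher in Sp3-/- than in WT cells. Cdh1 and Epcam passed the filter of 1 CPM only through Sp3-/- libraries. Of all genes tested, 8.76% were called higher. Krt8 was between 1.62 and 7.45 CPM in WT and between 3.48 and 40.0 CPM in Sp3-/- libraries. Sftpc and Nkx2-1, markers of lung epithelium, were near the detection limit, with WT means of -2.23 and -2.06 log2 CPM. Among WT libraries they ran from 0 to 4.56 and from 0 to 1.17 CPM. In Sp3-/- libraries they were at most 0.102 and 0.139 CPM. Neither was called in Sp3-/- against WT cells (adjusted p of 0.23 and 0.43, edgeR). The 9 mesothelial markers found were led by Upk3b and Upk1b. They summed to between 782.9 and 1855 CPM in WT, 1582 and 2803 in Sp3+/- and 2260 and 6499 in Sp3-/- libraries. Of these markers 4 of 9 were called higher in Sp3-/- than in WT cells, against the same 8.76% of all genes. Their part in the Cdh1 values was not tested.

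The wider list of epithelial genes that Snail, Twist and Zeb factors repress was examined next. Of its 25 genes 15 were expressed enough to be tested, and 3 were called higher and 0 lower in Sp3-/- than in WT cells, against 8.76% higher and 9.77% lower of all genes tested. These were Cdh1, the keratin Krt18 (1.73 ± 0.37, log2 ± SE) and the adhesion molecule Epcam (3.12 ± 0.81). Epcam, named after its value was seen, did not exceed 1.20 CPM in any library. Of the 15 genes 14 had a log2 fold change above 0, and the median was 1.06, against -0.0032 for all genes tested. Cdh1 and Epcam exceeded 1 CPM, the filter for testing, in Sp3-/- libraries alone. They held at most 0.365 and 0.281 CPM in WT and 0.287 and 0.143 in Sp3+/- libraries. The filter thus favoured higher values in the counts and the median of this list. Against Sp3+/- cells 5 of 16 were called higher and 0 lower, where 13.0% of all genes were called higher. They were Cdh1, Krt8 (3.03 ± 0.78), Epcam (2.96 ± 0.68), the desmosomal protein Dsp (1.82 ± 0.57) and Krt18.

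Mesenchymal genes of EMT were lower or not called. Of 25 genes tested, 11 were called lower and 0 higher in Sp3-/- cells, where 9.77% of all genes tested were called lower, and the median change was -0.87 (log2). The largest changes of the called genes were those of smooth muscle actin (Acta2, -2.29 ± 0.43, log2 ± SE), the matricellular protein periostin (Postn, -2.26 ± 0.51) and tenascin C (Tnc, -2.18 ± 0.41). Against Sp3+/- cells 15 of the 25 were called lower (12.5% of all genes tested), and in Sp3+/- against WT cells 0 of 25 were called.

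**Figure D4:**
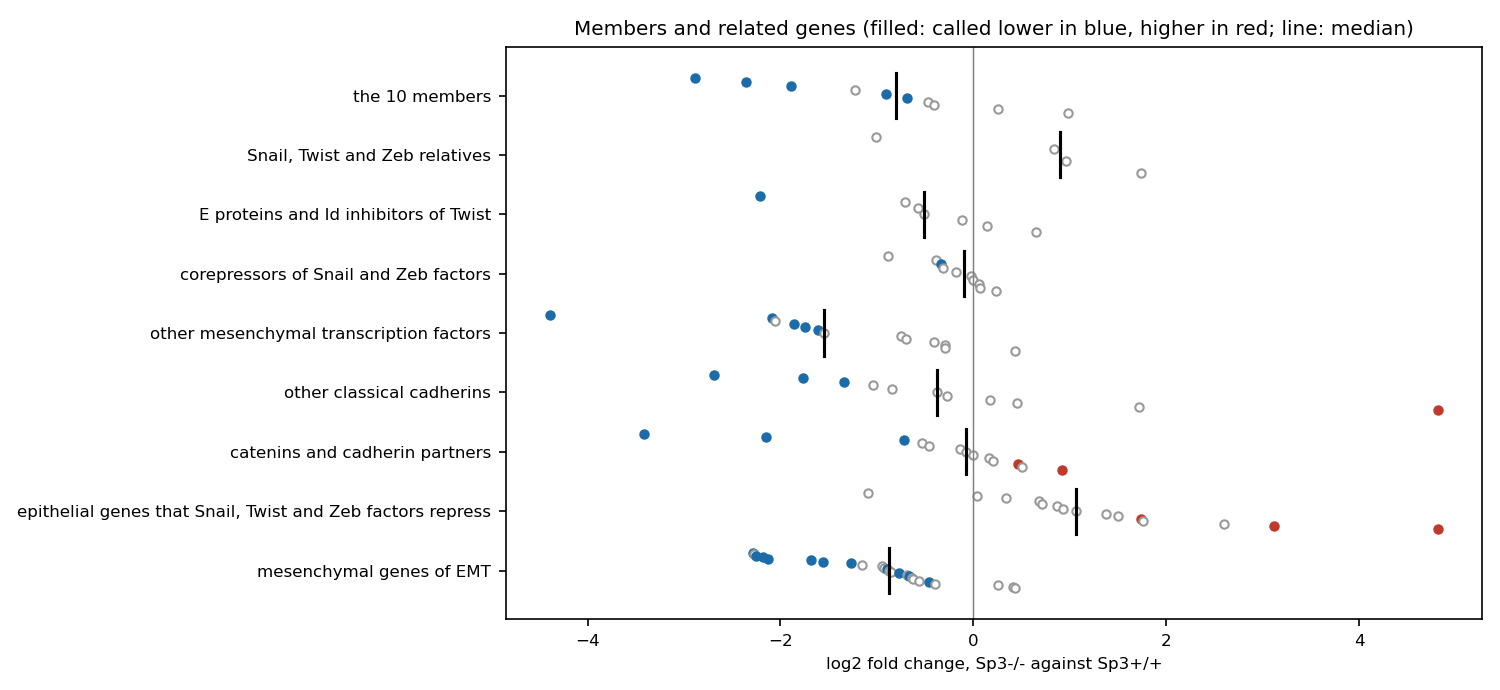
Log2 fold changes in Sp3-/- against WT cells (horizontal axis) for the 10 genes and the tested genes of 8 related lists. Each point is a gene, filled blue where called lower and red where called higher, and the black line is the median. The medians lie at -0.80 for the 10 genes, -0.87 for mesenchymal genes of EMT, -1.55 for other mesenchymal transcription factors and 1.06 for epithelial genes. Of the epithelial genes, Cdh1 and Epcam passed the filter of 1 CPM only through Sp3-/- libraries.

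Other transcription factors of mesenchyme were examined beside the Prrx genes. Of a list of 20 mesenchymal factors, mainly homeobox and forkhead genes but also Osr1, Osr2, Sox9 and Tbx18, 13 were tested, and 5 were called lower and 0 higher in Sp3-/- cells (9.77% and 8.76% of all genes tested). Among those above 2 log2 CPM, the largest changes were Foxc2 (-2.09 ± 0.35, log2 ± SE), Osr1 (-1.86 ± 0.39) and Foxc1 (-1.75 ± 0.31). Foxc1 and Foxc2 are forkhead factors of paraxial and vascular mesenchyme, and Osr1 is a zinc finger factor of lateral plate mesoderm. Of 12 relatives of the Snail, Twist and Zeb genes, only 4 were tested and 0 were called.

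Partners of the factors were counted beside all genes tested, of which 18.5% were called and 9.77% were lower. Of 7 E proteins and Id inhibitors, through which Twist activity is set, Id4 alone was called (-2.21 ± 0.31, log2 ± SE). The E proteins Tcf3, Tcf4 and Tcf12 were at -0.51, -0.71 and -0.12 and were not called. Of 10 corepressors used by Snail and Zeb factors, the histone deacetylase Hdac2 alone was called lower, at -0.33 ± 0.090.

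Cadherins other than the mesenchymal pair went in both directions. Of 17 genes 11 were tested, Cdh1 was called higher, and 3 were called lower (8.76% and 9.77% of all genes tested), R-cadherin (Cdh4, -2.69 ± 0.48, log2 ± SE), Cdh10 (-1.77 ± 0.43) and Cdh18 (-1.34 ± 0.38). The E-cadherin relative P-cadherin (Cdh3) stood at 1.71 and was not called. Of 14 catenins and other cadherin partners 13 were tested, and 3 were called lower and 2 higher, beside 9.77% and 8.76% of all genes tested. The largest changes were those of alpha-N-catenin (Ctnna2, -3.42 ± 0.43) and delta-catenin (Ctnnd2, -2.15 ± 0.30), followed by alpha-catulin (Ctnnal1, 0.92 ± 0.24). Beta-catenin (Ctnnb1), the shared link of classical cadherins to the actin cytoskeleton and a signaling protein, was called higher at 0.46 ± 0.13.

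For each called gene, the genes with the nearest profile over the 11 libraries were found by the root mean square (RMS) difference of centred log2 CPM. The nearest to Snai2 were Sept5 (0.16), Fam101b and Rasgrp1, and to Zeb1 Ehhadh (0.089) and Kdelr3. Nup107 (0.12), Mpzl1 and Nfatc4 were nearest to Snai1. The profile of Prrx1 was most like those of Mecom (0.29), Cthrc1 and Ogn, and that of Twist2 most like those of D430019H16Rik (0.34), Manr and Cdh4. Within the group, Snai1 and Zeb1 were nearest to each other (0.20), as were Twist2 and Prrx1 (0.50). The values are descriptions over libraries that share their genotype groups.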

How the data were processed

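RNA-seq libraries (TruSeq, 50 bp single-end reads) of cultured fetal lung mesenchymal cells were checked by the authors with FastQC 0.10.1, aligned to mm10 with STAR 2.4.5a and counted with htseq-count. The annotation version and strand setting are not given in the sources used here. The deposited counts are whole reads per gene symbol, and reads outside genes (38.4 to 40.9% of each library) were left out. A gene had to exceed 1 CPM in 1 library or more, and was tested with edgeR 4.0.16 (TMM, robust glmQLFit, glmQLFTest) in R 4.3.3, with Benjamini-Hochberg adjustment over all genes tested. For Sp3-/- against WT 7 libraries were fitted, and the fit of all 11 gave the other 2 comparisons. SE were obtained from the fold change and F. No libraries of a genotype agreed within counting noise (lowest chi-square per degree of freedom 15.8). limma 3.58.1 and DESeq2 1.42.0 served as alternatives, and the fit was tested on simulated data. The 10 genes, the lists and the tests were chosen with earlier results of these data known. Named genes were all members, Cdh1, up to 3 called genes per list with the largest change and a mean of at least 2 log2 CPM, the 3 nearest profiles of each called member (1 of which is not reported here), and the 2 most abundant genes of a marker list. Tcf3, Tcf4, Tcf12, Cdh3, Ctnnb1, Epcam, Krt8, Dsp, Osr2, Sox9, Tbx18, Meox2, Dcn, Sftpc and Nkx2-1 were named after their values were seen. Promoters were read from RefSeq (GRCm38.p6), which held 6 of the 10 genes, and exon lengths from GENCODE M39.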

Additional observations from a re-analysis of the deposited data

Results flagged for a closer look

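Among the levels of the 10 genes, Cdh1 and Sp3 in the 2 genotypes with 4 libraries, 24 groups were examined for a library far from the others, and 3 had one. By chance about 1 in 20 independent groups would. The genes here were measured in the same libraries, so that the 3 are not separate events and cannot be set against that rate. All 3 were Sp3+/- library 697-4, which lay low for Twist1 (2.91 log2 CPM), Twist2 (0.85) and Prrx1 (5.81), as the gap to the nearest library was most of the range of the group. The title of this library lacks a suffix, although the name of its deposited counts carries a suffix.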

How the results depend on the processing

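Of the 10 genes, 5 were called in Sp3-/- against WT cells, and between 2 (without Sp3-/- 697-2, Snai2 and Twist2) and 6 (without WT 468-4) when 1 library was left out. The count was 7 with DESeq2, 4 with limma-voom, 6 with limma-voom and a consensus correlation within label numbers, 6 with library size alone, 6 with all 11 libraries and 6 with the label number as a block. It was 3 with the title suffix as a covariate (Snai2, Zeb1 and Cdh2). The fit of the 4 libraries without a suffix held 1 WT library and could not decide which genes are called. Over all genes, 2599 were called, 4297 with DESeq2, 1329 with the suffix as a covariate, 3977 in the fit of all 11, and between 282 (without Sp3-/- 697-2) and 4179 (without WT 468-4) when 1 library was left out. In Sp3-/- against Sp3+/- cells, 5 members were called, and 3 with the label number as a block, 2 with the suffix as a covariate, and 3 to 6 with 1 library left out. In that comparison all genes called fell from 3607 to 763 with the suffix as a covariate and to 1490 without Sp3-/- 697-2. No member was called in Sp3+/- against WT cells under any alternative. Directions reversed only for values that were not called, apart from Twist2. Twist1 was at 0.073 in Sp3-/- against WT with the suffix as a covariate, and at 0.31 with it and 0.43 among libraries without a suffix against Sp3+/-. Among libraries without a suffix, Twist2 (0.29) and Prrx2 (0.32) were also above 0 against Sp3+/-. Cdh11 against Sp3+/- turned to 0.012 with DESeq2, 0.011 with library size alone, 0.0070 without a filter, 0.0048 with filterByExpr, 0.00035 with the 2 genotypes alone, 0.015 with the block, 0.17 with the suffix and 0.15 among libraries without it. With 1 library left out, Cdh11 ranged from -0.051 to 0.56 against WT and from -0.30 to 0.30 against Sp3+/-, and Twist1 from -0.71 to 0.14 against Sp3+/-. In Sp3+/- against WT such fits gave Twist1 from -0.34 to 0.0024, Zeb1 from -0.15 to 0.012, Zeb2 from -0.12 to 0.25 and Prrx1 from -0.50 to 0.085. The cause was not tested. Scaling by the upper quartile moved the median of all genes to -0.071. Depth limited Cdh1 and Twist2 most, at 0 to 13 reads of Cdh1 per WT library and 18 of Twist2 in the smallest Sp3-/- library.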
